A study of Mus musculus with 8 samples.

Results

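The genes that carry a dividing cell through mitosis were examined in 8 RNA-seq libraries, 4 labelled Control and 4 labelled Control+tranilast. The set held 55 genes, out of 22063 genes in the deposited table, and it leaves out the kinesin motors other than Cenpe. Most of the 55 act in mitotic entry, the spindle checkpoint, the kinetochore, the spindle, anaphase and cytokinesis. The members were chosen by their function in G2 and M phase, and the set was proposed with their counts in the 2 groups, and so the change between the groups, already known. The values of that change are therefore a description of these genes, and where members are counted as called in the fit over all genes, the count is not evidence of a change. All labels give the tissue as liver and the genotype as WT, and the series design places both groups on a high-fat, high-cholesterol (HFHC) diet, the diet on which mice develop steatohepatitis, with tranilast, an oral anti-allergic drug, added in 1 group. The study's methods describe young male C57BL/6J mice, with tranilast given by gavage at more than 1 dose in the later part of the diet, and there the word control stands for mice on normal chow. The labels name no diet, strain, age, dose or time, so whether these Control libraries came from mice on the HFHC diet, as the design text has it, and which dose the treated ones received could not be settled here.

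In a proliferating cell, cyclin B bound to CDK1 drives entry into mitosis, after CDC25 phosphatases have removed the inhibitory phosphates from CDK1, and Polo-like and Aurora kinases then build the spindle. Kinetochores tie chromosomes to microtubules, and the spindle checkpoint holds back the anaphase-promoting complex, a ubiquitin ligase, until every chromosome is attached. The ligase then destroys cyclin B and securin, separase opens the cohesin rings, and the cell divides. The transcripts of most of these genes rise late in each cycle. They are low in tissue that does not divide, and adult liver is such a tissue unless it is injured.

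The libraries held between 12053036 and 15618787 estimated counts, and a count of 0 would allow up to 3 counts, or between 0.192 and 0.249 CPM (the count scaled to a common library size), by counting error only. The labelled tissue was compared with its defining markers. Reads of the 10 hepatocyte markers made up at most 0.000191% of a library, Alb had at most 2 counts, and Cps1, Serpina1a and Hnf4a had 0 in all libraries. The 10 macrophage markers took 0.985% to 1.04% of each Control library and 0.961% to 1.02% of each Control+tranilast library, with Lyz2 between 51267 and 68975 counts, although Mertk and Mrc1 had at most 1 and 3. Of the 4 Kupffer cell markers, Clec4f, Vsig4 and Timd4 had 0 counts throughout. The endothelial, stellate, cholangiocyte, T cell, B cell and neutrophil lists each held at most 0.000286%. The libraries thus lack the markers that define liver tissue, and the label liver may not describe the cells that were sequenced, so no value below can be read as that of hepatocytes. The part of the source cells in the results was not tested, and in bulk libraries fewer cells in mitosis and less RNA per cell cannot be told apart.

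The mitotic genes were strongly expressed in the Control libraries and lower, as a group, with tranilast. Together they summed to 9380, 9005, 9371 and 9476 CPM in the 4 Control libraries and to 4389, 4478, 4572 and 4499 CPM in the 4 Control+tranilast libraries. CPM here are counts scaled to library sizes corrected by the TMM method, which assumes that most genes do not change. The sums of the groups did not overlap, and the Control mean was 9308 ± 208 CPM (SD, n = 4), that of the Control+tranilast group 4484 ± 75.3 CPM (SD, n = 4), or 48.2% of it. As a share of all counts, without that correction, the members took between 0.861% and 0.911% of a Control library and between 0.455% and 0.475% of a Control+tranilast library.

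All 55 members passed the filter on low counts, and the lowest count of any member in any library was 18. A gene was called where edgeR's quasi-likelihood fit over 10770 genes gave it an adjusted p-value under 0.05, and by this 54 members were called lower and 1 higher with tranilast. Over all genes tested, 57.0% were called in either direction, 28.8% lower and 28.2% higher. With library size alone as the scaling, the share of higher genes among all called ones was 70.9% in place of 49.5%, the median log2 fold change of all genes moved from 0.01 to 0.125, and 52 members were called lower and 1 higher. The 4 Control+tranilast libraries lay wholly below the 4 Control libraries in 53 members and wholly above in 1, where 25.2% of all genes lay wholly below and 24.5% wholly above. A log2 fold change of -1.5 or less was reached by 18 members, against 0.483% of all genes tested, and Aspm at -1.5 and Prc1 at -1.46 stood on either side of that threshold. The members made up 18 of the 52 genes that fell so far. Because the members were proposed with these values in view, nothing is read from the counts. The median log2 fold change of the members was -1.14, and 31 of them were under 50% of their Control mean.

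**Figure D1:**
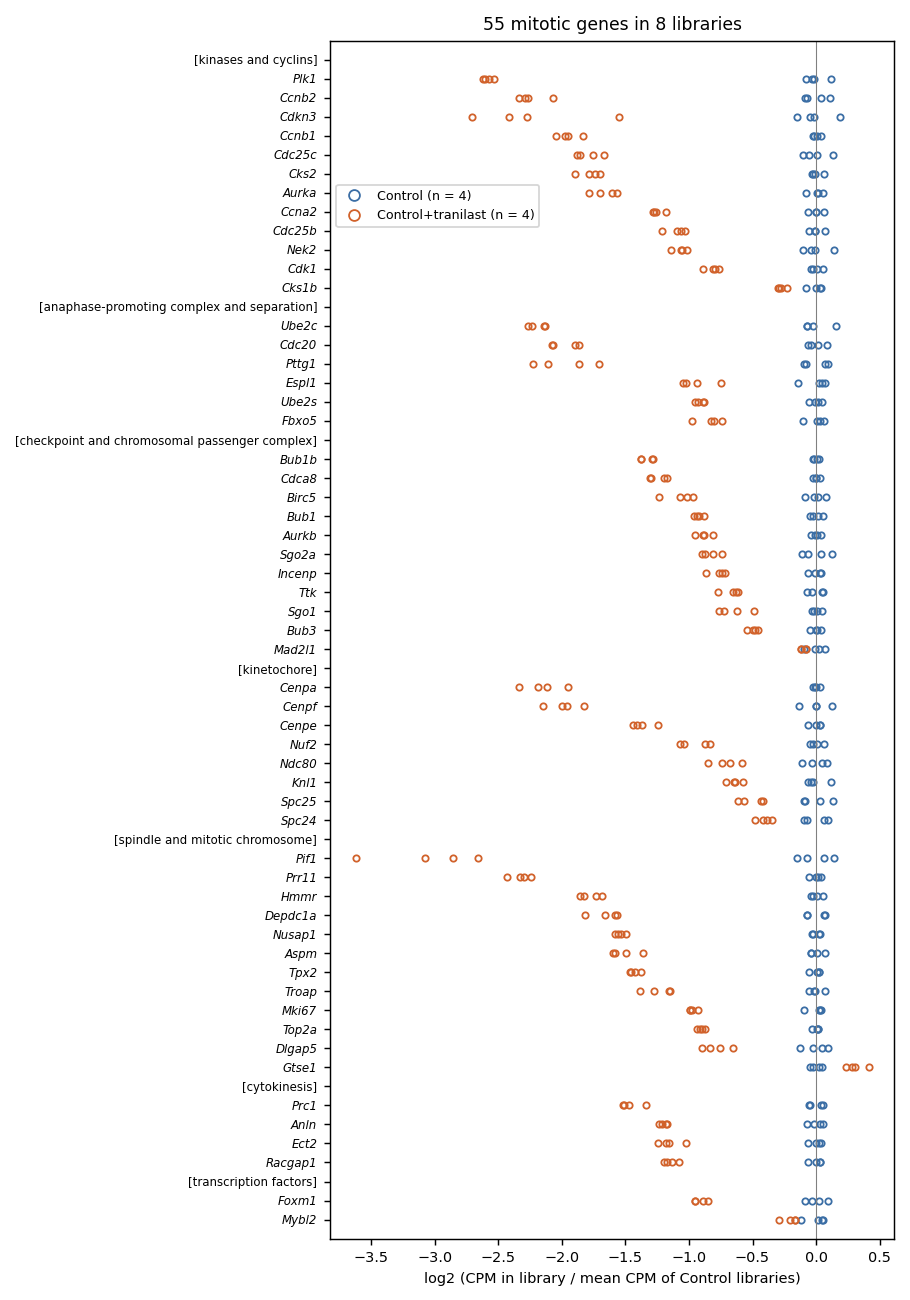
Each row is 1 of the 55 members, grouped by role, and each circle is 1 library (blue, 4 Control; orange, 4 Control+tranilast), placed by the log2 of its CPM over the mean CPM of the Control libraries. The orange circles lie left of the blue ones in 53 rows, mix with them in the row of Mad2l1 and lie to the right in the row of Gtse1.

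The replicate spread was small beside these differences. The median coefficient of variation of the members between libraries was 3.71% in the Control group and 5.45% in the Control+tranilast group, and the standard errors of the log2 fold changes ran from 0.02 in Top2a to 0.20 in Cdkn3, the least abundant member in CPM. The labels number the libraries but do not say that each came from a separate animal, so the spread between them may be technical in part.

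The members lie on 16 chromosomes, and the rule used no sequence, so their promoters were read as a separate feature. Cell cycle genes of late G2 and M phase are known for the cell cycle homology region (CHR), the letters TTTGAA near the start of transcription, which the DREAM complex and later MYBL2 and FOXM1 with the MuvB core recognize, and for CCAAT boxes upstream of it, which NF-Y binds. RefSeq promoter windows on GRCm38.p6, from 250 bases before to 50 bases after an annotated start, were found for 46 members (51 windows, since 5 members have 2 starts). Those of Ccna2, Cdc25c, Aurkb, Incenp, Spc24, Tpx2, Dlgap5, Pif1 and Foxm1 were not analysed here. TTTGAA on either strand was present in 62.7% of the members' windows, against 12.3% of 10999 windows of tested genes and 17.9% of all 32851 windows. CCAAT was present on either strand in 80.4% of the members' windows, 38.6% of those of tested genes and 37.4% of all, and both motifs together in 56.9%, 5.06% and 6.95%. The E2F letters TTCCCGC or TTTGGCG, associated with G1/S genes, were present in 3.92% of the members' windows, 10.8% of those of tested genes and 5.99% of all. A match shows only that the letters are there.

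Stretches of 134 bases around the annotated RefSeq start are shown, with 110 bases before it and 24 bases from it on. They are given for 5 members that fell far and hold both motifs (Ccnb2, Cdc20, Cenpa, Prr11 and Ube2c), for the paralogs Cks2 and Cks1b, which changed by different amounts, and for Gtse1, the member that rose. They run 5′ to 3′ on the strand of the gene, from RefSeq on GRCm38.p6, with every CHR, CCAAT and E2F match in capitals, also where the motif lies on the other strand and so appears reversed and complemented.
Ccnb2 (chr9:70421531-70421664, minus strand): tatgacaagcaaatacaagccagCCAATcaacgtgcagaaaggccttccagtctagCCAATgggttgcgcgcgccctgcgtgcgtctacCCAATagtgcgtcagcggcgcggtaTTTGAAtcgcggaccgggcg
Cdc20 (chr4:118437320-118437453, minus strand): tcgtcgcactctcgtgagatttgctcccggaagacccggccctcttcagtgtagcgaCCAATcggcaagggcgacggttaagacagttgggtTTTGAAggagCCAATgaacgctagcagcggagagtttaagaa
Cenpa (chr5:30666776-30666909, plus strand): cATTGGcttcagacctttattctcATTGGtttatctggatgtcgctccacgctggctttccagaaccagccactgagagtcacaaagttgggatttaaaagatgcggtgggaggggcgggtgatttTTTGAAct
Prr11 (chr11:87108691-87108824, minus strand): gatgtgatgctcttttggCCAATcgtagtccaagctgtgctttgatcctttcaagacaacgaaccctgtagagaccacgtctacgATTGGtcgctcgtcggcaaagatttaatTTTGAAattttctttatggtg
Ube2c (chr2:164769819-164769952, plus strand): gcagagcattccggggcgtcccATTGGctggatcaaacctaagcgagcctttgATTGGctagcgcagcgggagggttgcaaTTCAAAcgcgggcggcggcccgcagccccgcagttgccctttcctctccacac
Cks2 (chr13:51645122-51645255, plus strand): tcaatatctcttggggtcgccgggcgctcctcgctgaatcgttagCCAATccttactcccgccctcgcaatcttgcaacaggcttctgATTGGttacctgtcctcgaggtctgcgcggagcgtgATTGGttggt
Cks1b (chr3:89418268-89418401, minus strand): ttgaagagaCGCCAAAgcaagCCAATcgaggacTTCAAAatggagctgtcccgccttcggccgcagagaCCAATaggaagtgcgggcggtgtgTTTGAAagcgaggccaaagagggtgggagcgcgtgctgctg
Gtse1 (chr15:85859597-85859730, plus strand): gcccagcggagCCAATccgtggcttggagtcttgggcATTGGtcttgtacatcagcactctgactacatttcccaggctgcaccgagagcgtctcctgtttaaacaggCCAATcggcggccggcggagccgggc

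In Ccnb2, Cenpa and Prr11 the TTTGAA began 4, 16 and 3 bases after the annotated RefSeq start. In Cdc20 and Ube2c it began 18 and 29 bases before that start, at -18 and -29. Plk1 held it too, 30 bases after its start. GENCODE places the starts of Cenpa and Ube2c further upstream, at 30666777 and 164769898, so the Ube2c match lies inside its GENCODE gene. The first bases from the RefSeq start on were found in a GENCODE transcript for 34 of 46 members. Windows of a member with 2 starts can overlap and then count a site once for each start, so that the 40 CHR matches are 36 distinct sites and the 99 CCAAT matches 92. Over the 51 windows the CHR matches had a median position of -1.5 and the CCAAT matches one of -67, and 63.6% of the CCAAT matches began within the 100 bases before the start. The median log2 fold change was -1.24 in the 29 members with TTTGAA (between -2.58 and -0.27) and -1.07 in the 17 without it (between -1.95 and 0.31). It was -1.24 in the 36 members with CCAAT (between -2.58 and 0.31) and -0.93 in the 10 without it (between -1.95 and -0.10), so the ranges overlapped widely for both motifs. Cks1b, which fell least of the 29, holds 2 CHR matches and 1 E2F match, whereas its paralog Cks2 holds none of either and fell far.

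**Figure D2:**
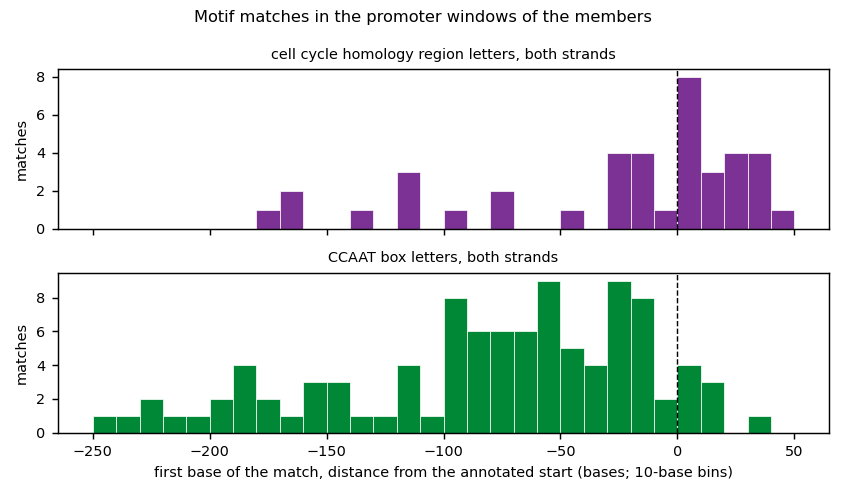
Histograms of the first base of each CHR match (40, upper panel) and CCAAT match (99, lower panel) in the members' 51 promoter windows, some of which overlap, as distance in bases from the annotated start (dashed line), in 10-base bins. CHR matches gather around the start (median -1.5), and CCAAT matches upstream of it (median -67).

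The kinases and cyclins that start mitosis were all lower, and most fell far. The 12 genes of this role summed to 1337 ± 26.9 CPM over the Control libraries and to 534 ± 7.13 CPM over those with tranilast (SD, n = 4 each), 40% of the Control level, and their median log2 fold change was -1.72. Plk1, the Polo-like kinase that acts from mitotic entry to cytokinesis (ENSMUSG00000030867, GRCm38 chromosome 7, 122159439 to 122169873, plus strand), had 146, 139, 160 and 145 CPM in the Control libraries and 25.4, 24, 24.3 and 24.7 CPM in the Control+tranilast libraries. No Control+tranilast library came near a Control library, and Plk1 stood at 16.7% of its Control mean, a log2 fold change of -2.58 (SE 0.05). The values of Ccnb1, the main mitotic cyclin (ENSMUSG00000041431, chromosome 13, 100778650 to 100786570, minus strand), were 170, 177, 174 and 170 CPM against 48.4, 44.0, 41.9 and 44.6 CPM, a log2 fold change of -1.95 (SE 0.04). Ccnb2, the cyclin B of the Golgi (ENSMUSG00000032218), had 90.3, 89.0, 97.5 and 102 CPM against 19.7, 19.4, 18.8 and 22.6 CPM, a log2 fold change of -2.23 (SE 0.06). Ccnb1 and Ccnb2 thus stood at 25.9% and 21.2% of their Control means. Ccna2, the cyclin A of S and G2 phase, was lower by less, at -1.25 (SE 0.04).

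Their partner kinase fell less than the cyclins. Cdk1 (ENSMUSG00000019942, chromosome 10, 69335146 to 69352938, minus strand) had 142, 150, 146 and 140 CPM in the Control libraries and 78.3, 85.1, 83.2 and 82.4 CPM in the Control+tranilast libraries, a log2 fold change of -0.82 (SE 0.04). The phosphatases that activate it were at -1.10 (Cdc25b, SE 0.05) and -1.79 (Cdc25c, SE 0.10). Aurka, the Aurora kinase of the spindle poles, was at -1.66 (SE 0.05), Nek2, which separates centrosomes, at -1.07 (SE 0.05), and Cdkn3, a phosphatase that acts on cyclin-dependent kinases, at -2.16 (SE 0.20). Cdkn3 had the fewest counts, with 7.68, 9.73, 8.42 and 8.23 CPM against 2.91, 1.30, 1.60 and 1.76 CPM. Its Control+tranilast replicate 1 stood above the other 3 libraries of its group, and the log2 fold change was -2.44 without that library.

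The small CDK-binding subunits Cks1b and Cks2 gave the widest contrast within a pair of paralogs. Cks2 (ENSMUSG00000062248, chromosome 13, 51645232 to 51650660, plus strand) had 30.5, 32.6, 30.9 and 30.6 CPM in the Control libraries and 9.59, 9.05, 8.39 and 9.33 CPM in the Control+tranilast libraries, a log2 fold change of -1.78 (SE 0.08). Cks1b (ENSMUSG00000028044, chromosome 3, 89415472 to 89418383, minus strand), which also serves the SCF ubiquitin ligase in G1 phase, had 111, 120, 120 and 117 CPM against 96.0, 95.3, 97.1 and 100 CPM, a log2 fold change of -0.27 (SE 0.04). The groups did not overlap in either gene. The log2 ratio of the Cks1b count to the Cks2 count, which does not depend on how libraries are scaled, was 1.86 to 1.96 across the Control libraries and 3.32 to 3.53 across the Control+tranilast libraries.

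Of 8 pairs of paralogs or complex partners compared in this way, the ratio moved without overlap between the groups in 6. The pairs were drawn from members whose changes were already known. Of all single genes tested, 25.2% lay wholly below and 24.5% wholly above with tranilast. The share over other pairs of genes was not computed, so nothing is read from the count of pairs. Aurka lost ground to Aurkb, the Aurora kinase of the passenger complex, with a log2 ratio of -0.31 ± 0.04 (SD, n = 4) in the Control group and -1.10 ± 0.09 (SD, n = 4) in the Control+tranilast group. Cdc25b to Cdc25c moved from 1.90 ± 0.13 to 2.58 ± 0.18 (SD, n = 4 each), and Bub1 to Bub1b from 0.04 ± 0.04 to 0.45 ± 0.06 (SD, n = 4 each). Sgo1 to Sgo2a moved by 0.18 and Nuf2 to Ndc80 by -0.24, and in both the groups were barely separate. For Sgo1 to Sgo2a the highest Control library was at -0.867 and the lowest Control+tranilast library at -0.839. For Nuf2 to Ndc80 the lowest Control library was at 1.003 and the highest Control+tranilast library at 0.981. The ratios of Ccnb1 to Ccnb2 (0.87 ± 0.11 and 1.15 ± 0.13, SD, n = 4 each) and of Spc24 to Spc25 (-0.23 ± 0.16 and -0.13 ± 0.09, SD, n = 4 each) overlapped between the groups.

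**Figure D3:**
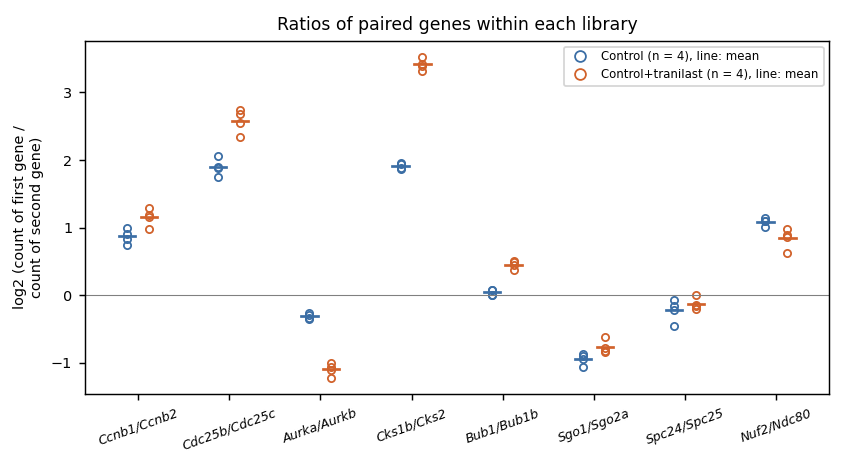
Log2 ratio of the counts of 2 members in each library, with 0.5 added to each count, for 8 pairs; circles are libraries (blue, 4 Control; orange, 4 Control+tranilast) and short lines are group means. The pair Cks1b/Cks2 moves most, from a mean of 1.91 to 3.42, Aurka/Aurkb moves the other way, and Ccnb1/Ccnb2 and Spc24/Spc25 overlap.

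Among the genes of anaphase, the activator and the ubiquitin-conjugating enzyme of the anaphase-promoting complex fell together with its substrate securin. The 6 genes of this role stood at 40.9% of their Control sum. Cdc20 (ENSMUSG00000006398, chromosome 4, 118432901 to 118437352, minus strand), the mitotic activator, had 133, 135, 140 and 147 CPM in the Control libraries and 33.0, 32.7, 37.2 and 37.9 CPM in the Control+tranilast libraries, a log2 fold change of -1.98 (SE 0.05). Ube2c (ENSMUSG00000001403, chromosome 2, 164769898 to 164778822, plus strand), the enzyme that starts ubiquitin chains on its substrates, had 148, 143, 167 and 143 CPM against 31.9, 31.3, 34.3 and 34.1 CPM, a log2 fold change of -2.19 (SE 0.06). Pttg1, which encodes securin, had 34.2, 37.9, 38.7 and 33.9 CPM against 9.94, 7.75, 8.39 and 11.1 CPM, a log2 fold change of -1.95 (SE 0.10). In all 3 the lowest Control library was above the highest Control+tranilast library by several times the spread within a group. Ube2s, which extends the chains, Fbxo5, which inhibits the complex before mitosis, and Espl1, which encodes separase, were at -0.91 (SE 0.03), -0.83 (SE 0.06) and -0.94 (SE 0.06).

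The spindle checkpoint and the chromosomal passenger complex, which corrects wrong attachments, were lower by smaller amounts. None of the 11 genes reached a log2 fold change of -1.5, their median was -0.83, and their sum stood at 56.6% of the Control level. Bub1b, whose product BUBR1 binds and blocks CDC20, was the lowest of them, with 253, 246, 250 and 245 CPM against 95.5, 102, 102 and 95.3 CPM, a log2 fold change of -1.33 (SE 0.04). Bub1, the kinase that recruits checkpoint proteins to kinetochores, was at -0.93 (SE 0.03), and Ttk, the kinase MPS1 at the head of the checkpoint, at -0.67 (SE 0.05). Bub3, which also has roles outside the checkpoint, was at -0.49 (SE 0.03). The 4 genes of the passenger complex were at -0.88 for Aurkb (SE 0.04), -0.77 for its scaffold Incenp (SE 0.04), -1.07 for Birc5, which encodes survivin (SE 0.06), and -1.24 for Cdca8, which encodes borealin (SE 0.04). The shugoshins, which guard centromeric cohesin, were at -0.64 (Sgo1, SE 0.07) and -0.83 (Sgo2a, SE 0.06).

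Mad2l1, which encodes the checkpoint protein MAD2 (ENSMUSG00000029910, chromosome 6, 66535390 to 66547220, plus strand), stood apart from its partners. It had 106, 100, 112 and 109 CPM in the Control libraries and 98.6, 101, 98.6 and 101 CPM in the Control+tranilast libraries, a log2 fold change of -0.10 (SE 0.04), and the groups overlapped. It counts among the 54 members called lower, but the call was lost in 13 of 18 alternative analyses, and the direction turned in 3 others, namely library size alone (0.02) and the deposited FPKM values with either added constant (0.04).

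The kinetochore genes were lower by unequal amounts. Cenpa, the histone H3 variant that marks the centromere (ENSMUSG00000029177, chromosome 5, 30666777 to 30674830, plus strand), had 75.2, 76.3, 76.7 and 78.2 CPM in the Control libraries and 15.1, 16.8, 17.6 and 19.8 CPM in the Control+tranilast libraries, a log2 fold change of -2.14 (SE 0.06). Cenpf and Cenpe, large proteins of the outer corona of the kinetochore, of which CENP-E is a motor, were at -1.98 (SE 0.06) and -1.36 (SE 0.04). The NDC80 complex, the microtubule-binding rod, was lower by less, with Nuf2 at -0.95 (SE 0.05), Ndc80 at -0.71 (SE 0.06), Spc25 at -0.50 (SE 0.06) and Spc24 at -0.41 (SE 0.06). Knl1, the scaffold on which the checkpoint assembles, was at -0.64 (SE 0.04). The rod and its scaffold thus kept between 51.7% and 75.4% of their Control means, whereas Cenpa kept 22.7%.

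The genes of the spindle and of the mitotic chromosome held both the largest fall and the single rise. Pif1 (ENSMUSG00000041064, chromosome 9, plus strand) is a DNA helicase that was counted under this role, and no part of it in the spindle was examined. It had 37.7, 30.7, 32.5 and 35.7 CPM in the Control libraries and 2.77, 4.05, 4.71 and 5.42 CPM in the Control+tranilast libraries. The log2 fold change was -3.00 (SE 0.13), and Pif1 stood at 12.4% of its Control mean. Prr11, a proline-rich protein of the late cell cycle, had 83.6, 80.4, 85.6 and 84.7 CPM against 17.7, 15.5, 17.0 and 16.6 CPM, a log2 fold change of -2.32 (SE 0.05). The spindle assembly factors were at -1.43 for Tpx2, which activates Aurora A (SE 0.03), -1.78 for Hmmr (SE 0.05), -1.5 for Aspm (SE 0.05), -1.54 for Nusap1 (SE 0.04) and -0.78 for Dlgap5 (SE 0.06). Depdc1a and Troap were at -1.66 (SE 0.07) and -1.24 (SE 0.07).

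Mki67 and Top2a, the members with the most CPM, had log2 fold changes close to each other. Mki67, which encodes the proliferation antigen Ki-67 that coats mitotic chromosomes, had 1621, 1480, 1607 and 1624 CPM in the Control libraries and 794, 804, 833 and 796 CPM in the Control+tranilast libraries, a log2 fold change of -0.97 (SE 0.03). Top2a, the topoisomerase that untangles sister chromatids, had 935, 938, 910 and 940 CPM against 486, 494, 508 and 500 CPM, a log2 fold change of -0.91 (SE 0.02). These 2 genes gave more than any others to the summed CPM of the members.

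Gtse1 was the only member that was higher with tranilast. It encodes a microtubule-binding protein of G2 and S phase that also acts on p53, and it was first described in the mouse as a p53-inducible gene (ENSMUSG00000022385, chromosome 15, 85859745 to 85876573, plus strand). It had 70.3, 74.0, 69.1 and 72.7 CPM in the Control libraries and 86.9, 95.3, 88.5 and 84.0 CPM in the Control+tranilast libraries. Every Control+tranilast library was above every Control library, and the log2 fold change was 0.31 (SE 0.05), between 0.28 and 0.43 over all alternative analyses. The 134 bases shown above hold 3 CCAAT matches and no TTTGAA, and neither of its 2 promoter windows holds TTTGAA.

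The 4 genes of cytokinesis moved within a narrow range. Prc1, which bundles the microtubules of the central spindle, had 156, 156, 168 and 166 CPM against 56.3, 56.5, 63.9 and 58.2 CPM, a log2 fold change of -1.46 (SE 0.05). Anln, the anillin scaffold of the cleavage furrow, was at -1.20 (SE 0.03). Ect2, which activates RhoA at the furrow, and Racgap1, a subunit of centralspindlin, were at -1.15 (SE 0.05) and -1.15 (SE 0.04). The sum of the 4 stood at 42.7% of the Control level.

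Of the 2 transcription factors, Foxm1, which drives many G2 and M phase genes, had 196, 188, 203 and 213 CPM in the Control libraries and 103, 108, 111 and 104 CPM in the Control+tranilast libraries, a log2 fold change of -0.91 (SE 0.04). Mybl2, which encodes B-MYB and acts with the MuvB core, had 175, 156, 171 and 176 CPM against 139, 147, 151 and 151 CPM, a log2 fold change of -0.21 (SE 0.04). The groups did not overlap in either gene, but Mybl2 was no longer called with library size alone (-0.09) or with the FPKM values (-0.08 with either added constant). The sum of the 2 stood at 68.6% of the Control level, the highest of the 7 roles.

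Levels between genes were compared on the deposited FPKM values, which the authors scaled for transcript length and depth. In the Control group the highest members were Ube2s with 205 ± 6.35 FPKM (SD, n = 4), Top2a with 171 ± 2.91, Mki67 with 153 ± 7.48, Ube2c with 149 ± 11.2 and Cks1b with 133 ± 4.56. Mki67 and Ube2c lay within their spread of each other. The lowest were Sgo1 with 8.5 ± 0.202 FPKM and Cdkn3 with 8.90 ± 0.889, which also lay within their spread. The median level of the members, 47.2 FPKM, compares with 13.9 FPKM over all genes tested. Large and small falls were seen at every level, since Pif1 (10.3 FPKM), Plk1 (64.4) and Ube2c (149) fell far, and Sgo1 (8.5), Bub3 (85.2) and Cks1b (133) fell by less.

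**Figure D4:**
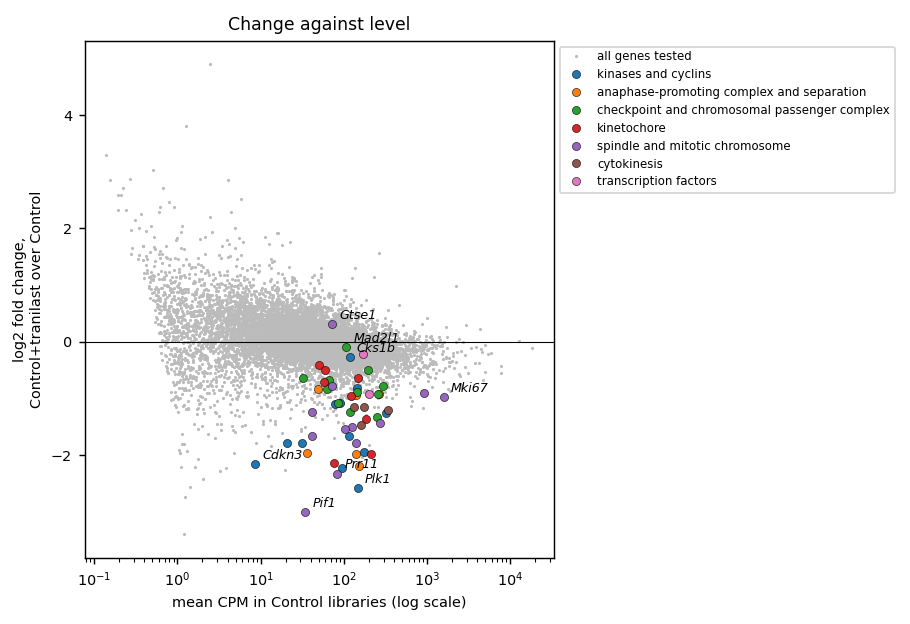
Log2 fold change, Control+tranilast over Control, against the mean CPM of the Control libraries on a log axis; grey points are all 10770 genes tested and coloured points the 55 members by role. Members lie below the line at 0 from Cdkn3 at the lowest CPM to Mki67 at the highest, with Pif1 at -3.00 and with Gtse1 above the line at 0.31.

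Other genes of mitosis, in lists written by function and holding no member, were counted to see how far the change reached beyond the members. The lists were chosen with earlier results of these data known, so their counts and adjusted p-values are a description too. They were tested in the same fit. Each count, here and in the paragraphs on lists that follow, is to be set beside the share of all genes called lower (28.8%) and higher (28.2%). Of 15 subunits and coactivators of the anaphase-promoting complex 6 were called lower and 1 higher, with a median log2 fold change of -0.13. The lowest were Anapc15, at -0.91 (SE 0.10, adjusted p = 7.9e-07 by Benjamini and Hochberg, from the quasi-likelihood test in edgeR), and Fzr1, which encodes CDH1, the activator used after Cdc20, at -0.83 (SE 0.05, adjusted p = 7.8e-11 from the same edgeR test). Anapc11 was at -0.32 and Anapc16, which rose, at 0.36. Of the kinases and phosphatases that set the CDK1 switch, 6 of 11 tested were called lower and 3 higher. Bora, a cofactor of Aurora A in the activation of Plk1, fell most, at -1.09 (SE 0.06, adjusted p = 9.5e-11 from the same edgeR test), Wee1, the kinase that restrains CDK1, was at -0.43 and Ppp2r2a at -0.23, while the phosphatase inhibitors Ensa and Arpp19 were at 0.22 and 0.25. Ccna1 and Ccnb3, cyclins of the germ line, and Klhl13 did not pass the filter on low counts.

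In the inner kinetochore with the Mis12 and Ska complexes, 14 of 27 genes were called lower and 3 higher, with a median of -0.27. Cenpl was at -1.10 (SE 0.09, adjusted p = 3.7e-09 from the same edgeR test) and Ska2 at -0.997, whereas Dsn1 and Cenph were at 0.30 and 0.29. Of 10 further checkpoint genes 6 were called lower and 0 higher, led by Trip13 at -0.46, Haspin at -0.35 and Spdl1 at -0.33. With upper-quartile factors, library size alone or the FPKM values, 2 of these 10 were called higher. Of the 8 condensin genes 7 were called lower and 0 higher, with a median of -0.48, and Ncapd2 (-0.89), Ncapg (-0.79) and Smc4 (-0.69) fell most. Of 14 cohesin genes 9 were called lower and 1 higher, with a median of -0.16. Rad21, the subunit that separase cuts, was at -0.76 (SE 0.03, adjusted p = 4.0e-13 from the same edgeR test), Stag1 at -0.46, Cdca5 at -0.27 and Esco1 at 0.25.

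Of 23 genes of the spindle pole and centrosome, 11 were called lower and 1 higher, with a median of -0.11. Fam83d was at -1.84 (SE 0.15, adjusted p = 7.2e-09 from the same edgeR test), Spag5 at -1.08 and Ckap2l at -1.06, and Psrc1 at 0.27. Of 14 tested genes of the furrow and of abscission, 6 were called lower and 3 higher, with a median of 0.01. Those that fell most were Cep55, which recruits the abscission machinery to the midbody, at -1.29 (SE 0.05, adjusted p = 1.4e-13 from the same edgeR test), Shcbp1 at -0.88 and Cit at -0.75, and those that rose most were Klhl21 at 0.42 and Pdcd6ip at 0.23.

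The factors that read CHR and CCAAT elements went both ways, with 7 of 16 called lower and 5 higher and a median of -0.09. Mybl1, the paralog of Mybl2, rose with tranilast, at 23.7 ± 2.10 and 44.7 ± 0.788 CPM in the 2 groups (SD, n = 4 each), a log2 fold change of 0.92 (SE 0.06, adjusted p = 1.2e-09 from the same edgeR test). Rbl2, which encodes p130, the pocket protein of the repressive DREAM complex in resting cells, rose too, at 39.0 ± 2.62 and 66.7 ± 2.10 CPM (SD, n = 4 each), a log2 fold change of 0.77 (SE 0.05, adjusted p = 8.4e-10 from the same edgeR test). Lin9, a MuvB subunit, was at -0.43, its partner E2f4 at -0.42 and E2f5 at -0.37.

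The kinesin motors of mitosis and the genes of DNA replication were set beside the members as the nearest groups, and the differences between the groups of genes were not tested. Of 13 mitotic kinesins 12 were called lower and 0 higher, with a median of -1.14, next to -1.14 for the members, and Kif20a was at -1.82, Kif2c at -1.70 and Kif22 at -1.42. Of 39 genes of DNA replication and G1/S 7 were called lower and 17 higher, with a median of 0.07. Rrm1, Tk1 and Pola1 were at -0.45, -0.44 and -0.28, and Cdc6, which licenses origins, and E2f1 both rose, each with a log2 fold change of 0.62.

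**Figure D5:**
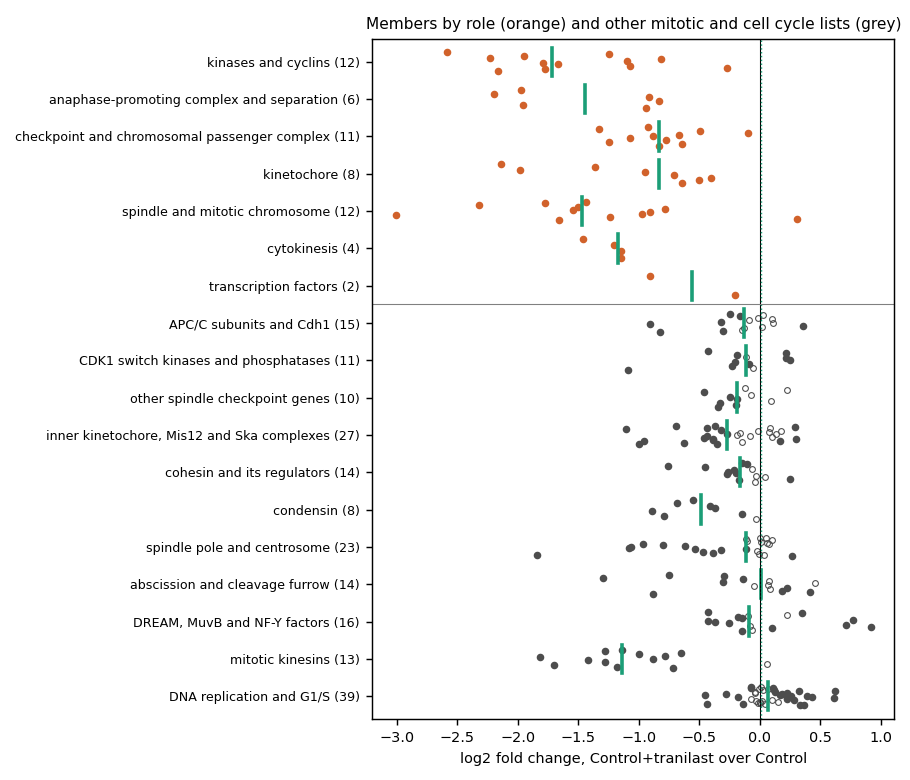
Log2 fold change, Control+tranilast over Control, of the members by role (orange, above the line) and of the genes of 11 other lists (grey, below it), with the number of genes tested in brackets; filled circles were called at an adjusted p-value under 0.05, open circles were not, green bars are medians and the dotted line is the median of all genes tested. Medians of the members' roles run from -1.72 to -0.56, that of the mitotic kinesins is -1.14, and those of the other lists lie between -0.48 and 0.07.

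Some of these genes share sequence or position with others, which limits how far their counts are their own. By gene names in which -ps or rt follows a member's symbol, the annotation holds pseudogenes of Ccnb1 and Ccnb2 and a retrogene of Cks1b. Copies under other names were not searched for. Exons of Sgo2a overlap those of Kctd18 on the other strand over 2455 bases, those of Prc1 overlap Rccd1 over 911, those of Cdc25c overlap Gm3550 over 623, those of Ube2c overlap Tnnc2 over 592 and those of Ccna2 overlap Exosc9 over 510. On the same strand, exons of Foxm1 overlap Tex52 over 144 bases and Gm44596 over 97, and those of Top2a overlap the snoRNA gene Gm23451 over 122, which strand would not resolve. A further 8 members overlap another gene on the other strand over at most 298 bases. Whether the counting used strand is not given in the sources used here, so reads in these stretches cannot be assigned to 1 gene.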

How the data were processed

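RNA-seq of 8 libraries was analysed. Per the study's methods they were poly-A enriched and paired-end, and the methods and the labels name different Illumina sequencers. The authors deposited an estimated count per gene, in part fractional, and FPKM values, which they had normalized for transcript length and depth. The aligner, counting tool and genome build are not given in the sources used here. Gene coordinates come from GENCODE M21 (GRCm38), matched by Ensembl identifier for 21973 genes (90 unmatched), 1-based, and promoters are from RefSeq on GRCm38.p6. Protein sequences were not analysed here.

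Counts were rounded, filtered with filterByExpr by group, scaled by TMM (factors between 0.956 and 1.045) and tested in edgeR 4.0.16 (R 4.3.3) by quasi-likelihood, with p-values adjusted over 10770 genes after Benjamini and Hochberg. The design had 2 groups and no covariate. Genes were called at an adjusted p-value under 0.05. The paper's methods name limma and require a log2 fold change beyond 1.5, so limma-voom was an alternative and the threshold a second rule. The members, the 11 lists (193 genes) and the tests were chosen with earlier results of these data known. All 55 members were named, and in each list the 3 lowest and 2 highest log2 fold changes among called genes, except 1 gene that is not reported here. Alternatives were RLE, upper-quartile and library-size scaling, DESeq2 1.42.0, limma-voom and limma trend on log2(FPKM + 1) or log2(FPKM + 0.1) with limma 3.58.1, no filter, a minimum of 10 counts in each library, the replicate number as a block, and leaving out each library. The code was tested on simulated data. Replicates of a group differed by more than sampling noise in every pair, so none was counted as a duplicate. Python 3.11.15 and pandas 2.3.3 were used for motifs.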

Additional observations from a re-analysis of the deposited data

Results flagged for a closer look

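Among 110 sets of 4 libraries, 1 for each member and group, 1 was marked because a library stood far from the other 3 (by Dixon's ratio of the gap to the range), where chance marks about 1 in 20. Control replicate 2 had 1480 CPM of Mki67, against 1607 to 1624 CPM in the other Control libraries. The same library gave the lowest sum over the members, 9005 CPM, still above every Control+tranilast library.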

How the results depend on the processing

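Under 18 alternative analyses, 53 members kept their direction and their call in all, the median log2 fold change of the members lay between -1.17 and -0.98, and between 52 and 54 were called lower. Mad2l1 turned to 0.019 with library size alone and to 0.040 and 0.041 with log2(FPKM + 1) and log2(FPKM + 0.1), and Mybl2 lost its call in 3 alternatives. Of 46 named genes of the lists, 4 lost their call in some alternative (Ppp2r2a, Arpp19, Cenph and E2f5) and 0 turned direction.

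Counts over genes moved mainly with the scaling. Called lower were 3104 of all genes, but 1893 with library size alone and 1660 and 1663 with FPKM and 1 or 0.1 added, and called higher were 3039, but 4613 with library size alone. With upper-quartile factors, higher genes were 62.6% of all called ones, and 70.5% and 70.4% with FPKM. With library size alone the counts called higher were 5 for the anaphase-promoting complex, 2 for checkpoint genes, 6 for the inner kinetochore, 2 for cohesin, 6 for the spindle pole, 5 for the furrow, 1 for kinesins and 26 for G1/S genes, and those called lower were 5 for cohesin, 3 for DREAM factors and 3 for G1/S genes. With upper-quartile factors 2, 2, 5 and 5 were called higher in the first 3 lists and the furrow, and 3 G1/S genes lower. With both FPKM analyses 4 genes of the complex, 2 checkpoint, 2 cohesin, 1 condensin, 2 spindle pole and 1 kinesin gene were called higher, and 2 CDK1 switch, 5 cohesin, 3 DREAM and 3 G1/S genes lower. Leaving out each library gave 0 to 1 checkpoint genes higher (1 without Control replicate 4), 1 to 3 inner kinetochore genes higher (1 without Control replicate 2) and 4 to 7 G1/S genes lower (4 without Control replicate 4). The cause was not tested.

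The replicate numbers did not pair the libraries: same-numbered libraries correlated at -0.044, -0.054, 0.014 and 0.132 in their deviations from the group means, and only number 4 matched its own number best. With the replicate block, 53 members were called lower, 1 higher, and 6009 of all genes in place of 6143.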
